A study of Mus musculus with 8 samples.

Results

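Amino acid transporters of the mouse lung were examined in RNA-seq of 8 mice, as the protein-coding genes of the carrier families SLC1, SLC3, SLC6, SLC7, SLC36, SLC38 and SLC43. Members were taken by the start of the gene symbol, and *Slc7a11* was left out by the rule. Of 55416 gene identifiers in the count data, 63 genes fitted, of which 62 are transporters by name. The remaining one, *Slc7a6os*, carries a transporter symbol only because it lies next to *Slc7a6* and is no transporter. The SLC6 family also holds carriers of monoamines and creatine, which were kept because the rule names families and not substrates.

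Amino acid transporters move amino acids across the plasma membrane, or across the lysosomal membrane, and so set what a cell has at hand for protein synthesis, redox defence and signalling. Some are symporters that take up amino acids with sodium ions or protons, and others are exchangers that import an amino acid only by releasing another, so that uptake in a cell depends on several carriers at a time. Immune cells raise uptake of leucine, glutamine and arginine when they are activated, lung epithelium carries broad-range uptake systems on its airway side, and pulmonary endothelium clears noradrenaline and serotonin from the blood through SLC6 carriers.

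The study asked how YW3-56, an inhibitor of peptidylarginine deiminases (PADs), the enzymes that convert histone arginine to citrulline when neutrophils release extracellular traps, acts on endotoxin shock. All mice were female C57BL/6J of 6 to 8 weeks, and lung tissue was taken at about 24 h. Control mice (n = 3) were given DMSO into the tail vein and then saline into the peritoneum. LPS mice (n = 3) were given lipopolysaccharide, the endotoxin of Gram-negative bacteria, at 35 mg/kg. Dual-treatment mice (n = 2) were given YW3-56 in DMSO at 10 mg/kg shortly before LPS at 35 mg/kg. DMSO is named for the control and dual-treatment groups only, so inhibitor and vehicle cannot be told apart in the comparison of the dual-treatment with the LPS group. For the same reason, LPS and the lack of a named vehicle cannot be told apart in the comparison of the LPS with the control group. Total counts ran from 19061949 in control mouse 1 to 20908608 in dual-treatment mouse 5.

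Levels are given as CPM, counts scaled by library size after TMM normalization. Groups were compared by the quasi-likelihood F-test of edgeR, and p was adjusted for 18560 tested genes by the Benjamini-Hochberg procedure. A gene was called higher or lower where the adjusted p was under 0.05 and the fold change over 2. Of the 63 members, 47 passed the filter on low counts and were tested. Fold changes are given as log2 fold change (log2FC) ± standard error (SE). The comparisons with control share the control mice, and the comparisons with LPS share the LPS mice, so their values are given side by side and are not independent.

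LPS mice 6 and 7 stood apart from the other 6 libraries. The 7 squamous epithelial markers summed to 5.58, 10.8 and 11.2 CPM in control mice 1, 2 and 4, 0.653, 685 and 1941 CPM in LPS mice 1, 6 and 7, and 9.21 and 23.4 CPM in dual-treatment mice 2 and 5. *Krt13* and *Krt4* held most of the sum in LPS mice 6 and 7, and *Krt14* was the most abundant in the control mice. *Krt13* was at 0.297, 286 and 887 CPM in LPS mice 1, 6 and 7, and *Krt4*, *Krt6a*, *Sprr3* and *Dsg3* were at 0 counts in LPS mouse 1. The 7 skeletal muscle markers, of which *Myh1* was the most abundant in LPS mice 6 and 7 and *Ckm* had the highest mean in the control mice, summed to 8.71, 29.2 and 13.7 CPM in control mice 1, 2 and 4, 19.3, 228 and 546 CPM in LPS mice 1, 6 and 7, and 4.45 and 5.71 CPM in dual-treatment mice 2 and 5. Results on LPS are therefore also given without LPS mice 6 and 7, where LPS mouse 1 stands alone and is assumed to vary like the mice of the other groups. The markers of lung were present in every library, with *Sftpc* of alveolar type 2 cells between 8322 and 24536 CPM.

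Of the 47 tested members, 11 were higher in LPS than in control lungs (23.4%, against 17.9% of all tested genes) and 10 were lower (21.3%, against 21.3%). The members that rose were *Slc7a5*, *Slc7a6*, *Slc7a8*, *Slc7a1*, *Slc38a2*, *Slc38a4*, *Slc1a1*, *Slc6a14*, *Slc6a19*, *Slc6a20a* and *Slc6a20b*. Those that fell were *Slc7a10*, *Slc7a4*, *Slc38a5*, *Slc38a6*, *Slc38a7*, *Slc38a9*, *Slc6a2*, *Slc6a4*, *Slc6a15* and *Slc36a2*. The other 26 tested members were not called, and 15 of these had an adjusted p under 0.05 with a fold change under 2. The median log2FC was 0.39 over the 47 members and −0.01 over all tested genes.

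Fewer members differed between dual-treatment and control lungs. 4 members were higher (8.51%, against 5.25% of all tested genes), namely *Slc7a8*, *Slc7a5*, *Slc6a20a* and *Slc6a12*. 2 members were lower (4.26%, against 1.90%), namely *Slc1a1* and *Slc6a2*. The median log2FC was −0.13 over the members, beside 0.0042 over all tested genes. Without dual-treatment mouse 2, 1 member was higher and 1 was lower (3.05% and 0.798% of all genes tested there), and without dual-treatment mouse 5 the counts were 5 and 3 (5.71% and 3.62% of all genes). The share of all genes thus moved in the same direction as the members.

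Compared with LPS lungs, dual-treatment lungs had 10 members higher (21.3%, against 19.8% of all tested genes) and 12 lower (25.5%, against 14.0%). Those higher were *Slc7a10*, *Slc7a4*, *Slc7a7*, *Slc38a5*, *Slc38a6*, *Slc38a7*, *Slc38a9*, *Slc6a2*, *Slc6a12* and *Slc6a15*. Those lower were *Slc7a5*, *Slc7a6*, *Slc7a1*, *Slc7a2*, *Slc3a2*, *Slc38a2*, *Slc38a4*, *Slc1a1*, *Slc1a2*, *Slc6a14*, *Slc6a20b* and *Slc43a1*. This comparison uses the same LPS mice as that of LPS with control, so a high or low LPS value enters both. The median log2FC was −0.16 for the members and 0.06 for all tested genes.

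Scaling matters for the balance of higher and lower calls. With library size in place of TMM, the median of all tested genes moved by −0.29 in LPS against control, and 2472 genes were higher and 5124 lower, in place of 3318 and 3961. Among the members, 10 were then higher and 12 lower. Of those named above only *Slc1a1* was lost, and *Slc6a9* and *Slc7a7* were added to the lower ones. For dual treatment against LPS the same scaling moved the median of all tested genes by 0.33 and gave 5118 genes higher and 1735 lower in place of 3666 and 2598, and 12 members higher and 9 lower. The median log2FC of the members was then 0.13 in LPS against control and 0.15, in place of −0.16, in dual treatment against LPS.

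Without LPS mice 6 and 7, 12 members were higher and 10 lower in LPS than in control (15.9% and 19.7% of all genes tested there), of which 10 and 9 were shared with the full comparison. *Slc6a19* and *Slc6a4* were no longer called, and *Slc3a2*, *Slc7a2* and *Slc6a9* were called in addition. Between dual treatment and LPS, 8 members were higher and 11 lower (18.1% and 12.3% of all genes), and all of these were also called with every mouse, while *Slc38a5* (log2FC 0.78 in place of 1.28), *Slc6a12* (2.36 in place of 2.47) and *Slc6a20b* (−2.93 in place of −3.09) were lost. Several large values kept their direction, among them a log2FC in LPS mouse 1 alone against control of 3.16 for *Slc7a5*, 3.08 for *Slc38a4*, 2.53 for *Slc7a6*, 2.21 for *Slc7a1* and 1.71 for *Slc6a14*. Among the members that fell it was −4.02 for *Slc7a10*, −4.37 for *Slc6a2* and −1.67 for *Slc38a5*.

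**Figure D1:**
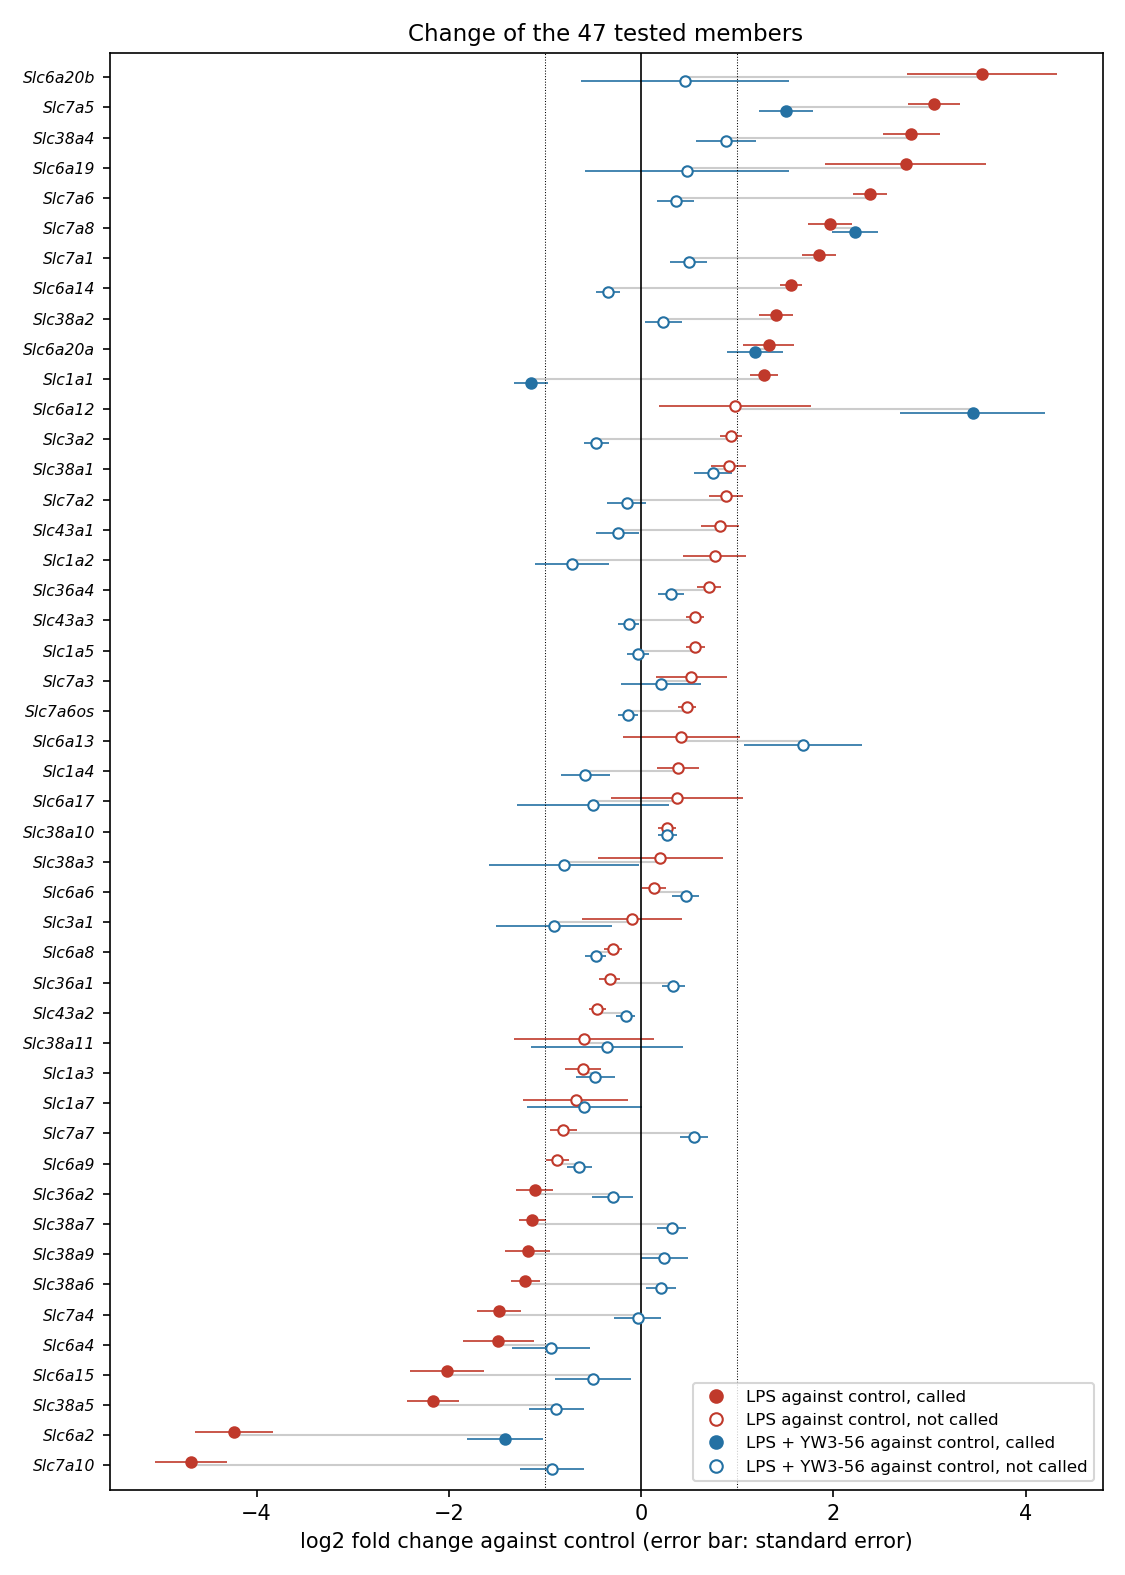
Each row is a tested member, and the horizontal axis gives its log2 fold change against control with LPS (red) and with LPS and YW3-56 (blue), with standard errors as bars. Filled points passed the call (adjusted p under 0.05 and fold change over 2, dotted lines at a fold change of 2), which 21 members did with LPS and 6 with dual treatment, and the value of *Slc6a20b* rests on at most 2 counts in each control library.

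Summed over the 63 members, *Slc7a6os* and the carriers of other substrates included, mRNA was at 2510.1, 2552 and 2458 CPM in control mice 1, 2 and 4, 4096, 3594 and 3866 CPM in LPS mice 1, 6 and 7, and 2541 and 2350.4 CPM in dual-treatment mice 2 and 5. *Slc43a3*, a carrier of purine bases, held between 17.3% and 20.7% of the sum in each mouse. All LPS mice were above every other mouse, and the dual-treatment mice lay on both sides of the lowest control mouse. Per kb of exon length, *Slc43a3* was the most abundant member in each group, at 79.9, 118 and 73.0 CPM per kb in control, LPS and dual-treatment lungs, although *Slc3a2* was above it in LPS mouse 1 (124.2 against 123.0 CPM per kb). *Slc3a2* (57.0 CPM per kb in control) and *Slc1a5* (52.2 CPM per kb in control) came next, and their control mice nearly met, with 55.21 CPM per kb in the lowest for *Slc3a2* and 55.17 CPM per kb in the highest for *Slc1a5*. In LPS lungs *Slc6a14* (80.2 CPM per kb) and *Slc1a5* (77.1 CPM per kb) were close, with overlapping mice, and *Slc38a2* (46.6 CPM per kb) followed them. *Slc38a4*, *Slc7a6* and *Slc7a5* were among the 10 most abundant members in LPS lungs only.

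*Slc3a2* encodes the heavy chain 4F2hc (CD98), which takes the light chains of the SLC7 family to the plasma membrane. It was at 269.9, 271 and 258 CPM in control mice 1, 2 and 4, 579, 443 and 508 CPM in LPS mice 1, 6 and 7, and 186 and 198 CPM in dual-treatment mice 2 and 5. Every LPS mouse was above every control mouse, and the dual-treatment mice were the lowest. The log2FC was 0.94 ± 0.116 with LPS (adjusted p = 7.78e-05, edgeR), which stayed under the 2-fold minimum, and it reached 1.04 without LPS mouse 6 and 1.13 without LPS mice 6 and 7. In dual-treatment lungs *Slc3a2* fell below LPS lungs (log2FC −1.41 ± 0.135, adjusted p = 3.21e-05, edgeR). The antisense noncoding gene *Snhg1* shares 743 exonic bases with *Slc3a2* and was at 19.0, 11.6 and 12.6 CPM in the control mice, 37.0, 38.3 and 28.9 CPM in the LPS mice and 19.2 and 12.5 CPM in the dual-treatment mice. *Slc3a1*, the heavy chain rBAT of kidney and gut, was near the limit of detection, with 19, 13 and 8 counts in the control mice, 7, 10 and 14 in the LPS mice and 10 and 5 in the dual-treatment mice. Its groups overlapped throughout, and 26.8% of its exonic bases also belong to *Prepl* on the other strand.

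*Slc7a5* (ENSMUSG00000040010, chr8:122607884-122634433 in GRCm39) encodes LAT1, the light chain that exchanges leucine and other large neutral amino acids. It was at 7.54, 7.32 and 8.69 CPM in control mice 1, 2 and 4, 70.2, 66.4 and 59.0 CPM in LPS mice 1, 6 and 7, and 31.3 and 13.4 CPM in dual-treatment mice 2 and 5. LPS mice were high without overlap, the dual-treatment mice lay between LPS and control, and mouse 2 was above mouse 5. *Slc7a5* rose with LPS by a log2FC of 3.05 ± 0.271 (8.30-fold, adjusted p = 1.02e-05, edgeR), the largest rise among members with a mean of at least 1 CPM. With dual treatment it was also above control (log2FC 1.51 ± 0.285, adjusted p = 0.00767, edgeR), but without dual-treatment mouse 2 the log2FC was 0.74 and the call was lost. It was lower in dual-treatment than in LPS lungs (log2FC −1.54 ± 0.290, adjusted p = 0.00149, edgeR).

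*Slc7a6* (ENSMUSG00000031904, chr8:106895139-106925346 in GRCm39) encodes y+LAT2, which exports arginine in exchange for glutamine and sodium. It was at 32.3, 29.9 and 28.0 CPM in control mice 1, 2 and 4, 173, 143 and 155 CPM in LPS mice 1, 6 and 7, and 48.4 and 28.8 CPM in dual-treatment mice 2 and 5. LPS mice were well above all others, and dual-treatment mouse 5 was within the control range. *Slc7a6* rose with LPS (log2FC 2.38 ± 0.178, adjusted p = 3.94e-06, edgeR) and was lower with dual treatment than with LPS (log2FC −2.02 ± 0.204, adjusted p = 4.28e-05, edgeR). Its neighbour *Slc7a6os*, a nuclear transport factor, was at 35.4, 34.1 and 30.3 CPM in the control mice, 48.6, 43.6 and 46.7 CPM in the LPS mice and 30.8 and 29.8 CPM in the dual-treatment mice, and its log2FC with LPS of 0.48 stayed under the 2-fold minimum.

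*Slc7a8*, which encodes LAT2, an exchanger of neutral amino acids with a broader range than LAT1, was not called between the treated groups, unlike *Slc7a5* and *Slc7a6*. It was at 3.23, 2.72 and 4.83 CPM in control mice 1, 2 and 4, 13.6, 13.7 and 14.7 CPM in LPS mice 1, 6 and 7, and 19.5 and 14.2 CPM in dual-treatment mice 2 and 5. Both treated groups were above all control mice and overlapped with each other. *Slc7a8* rose with LPS (log2FC 1.96 ± 0.228, adjusted p = 5.24e-05, edgeR) and with dual treatment (log2FC 2.23 ± 0.244, adjusted p = 0.000468, edgeR). Between these groups the log2FC was 0.26 ± 0.236 (adjusted p = 0.361, edgeR), and it was −0.0119 without dual-treatment mouse 2. *Slc7a7*, which encodes y+LAT1, a paralog of y+LAT2 known from macrophages and epithelium, was at 13.2, 14.4 and 15.1 CPM in control mice 1, 2 and 4, 7.95, 8.32 and 8.09 CPM in LPS mice 1, 6 and 7, and 18.5 and 23.2 CPM in dual-treatment mice 2 and 5. The lowest values were those of the LPS mice and the highest those of the dual-treatment mice, with no overlap. It was higher with dual treatment than with LPS (log2FC 1.36 ± 0.150, adjusted p = 6.82e-05, edgeR), while its log2FC with LPS was −0.81 ± 0.138.

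*Slc7a10* (ENSMUSG00000030495, chr7:34885666-34906995 in GRCm39) encodes Asc-1, an exchanger of small neutral amino acids such as alanine, serine and cysteine. It was at 15.6, 21.4 and 18.5 CPM in control mice 1, 2 and 4, 1.13, 0.462 and 0.558 CPM in LPS mice 1, 6 and 7, and 6.53 and 12.9 CPM in dual-treatment mice 2 and 5. All LPS mice were near the bottom of the scale, with 19, 8 and 10 counts, and the dual-treatment mice lay below the lowest control mouse. *Slc7a10* fell with LPS (log2FC −4.69 ± 0.375, adjusted p = 5.6e-06, edgeR), the largest fall of any tested member. It was higher in dual-treatment than in LPS lungs (log2FC 3.76 ± 0.390, adjusted p = 4.93e-05, edgeR), and its log2FC against control was −0.93 ± 0.332, or −1.53 with a call without dual-treatment mouse 5. As annotated, 50.2% of the exonic bases of *Slc7a10* are shared with *Lrp3* on the opposite strand, and the strand setting of the counting is not given in the sources used here. *Lrp3* itself was at 13.6, 16.3 and 15.1 CPM in the control mice, 4.15, 5.66 and 4.63 CPM in the LPS mice and 9.67 and 12.3 CPM in the dual-treatment mice (log2FC −1.64 with LPS, adjusted p = 3.63e-05, edgeR), so the values of both genes are uncertain to that extent.

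Cationic amino acid carriers take up arginine, the substrate of nitric oxide synthase. *Slc7a1* (CAT-1, the carrier of most tissues) was at 23.1, 20.9 and 20.0 CPM in control mice 1, 2 and 4, 98.4, 62.5 and 70.2 CPM in LPS mice 1, 6 and 7, and 33.7 and 26.5 CPM in dual-treatment mice 2 and 5. LPS mouse 1 was the highest and all LPS mice stood clear of the others. *Slc7a1* rose with LPS (log2FC 1.85 ± 0.176, adjusted p = 1.5e-05, edgeR) and was lower with dual treatment than with LPS (log2FC −1.36 ± 0.198, adjusted p = 0.000338, edgeR). *Slc7a2* (CAT-2, the inducible carrier of macrophages and other cells) was at 39.9, 37.5 and 33.7 CPM in control mice 1, 2 and 4, 87.8, 67.6 and 49.6 CPM in LPS mice 1, 6 and 7, and 33.9 and 32.8 CPM in dual-treatment mice 2 and 5. LPS mice were above the others without overlap but spread widely, with mouse 7 the lowest of them. Its log2FC with LPS was 0.88 ± 0.179, under the minimum, and passed it without LPS mouse 7 (1.08) and without LPS mice 6 and 7 (1.25). It was lower in dual-treatment than in LPS lungs (log2FC −1.03 ± 0.206, adjusted p = 0.00204, edgeR), a call lost without LPS mouse 1 (−0.82) and with library-size scaling (−0.69). *Slc7a4*, a relative with no settled transport function, fell with LPS (log2FC −1.48) and was higher with dual treatment than with LPS (log2FC 1.45). It shares 32.6% of its exonic bases with *P2rx6* on the opposite strand, which was at 14.3, 12.2 and 14.5 CPM in the control mice, 6.53, 6.76 and 9.99 CPM in the LPS mice and 7.58 and 9.22 CPM in the dual-treatment mice. *Slc7a3*, a cationic carrier of brain, was low, between 0.783 and 1.73 CPM.

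**Figure D2:**
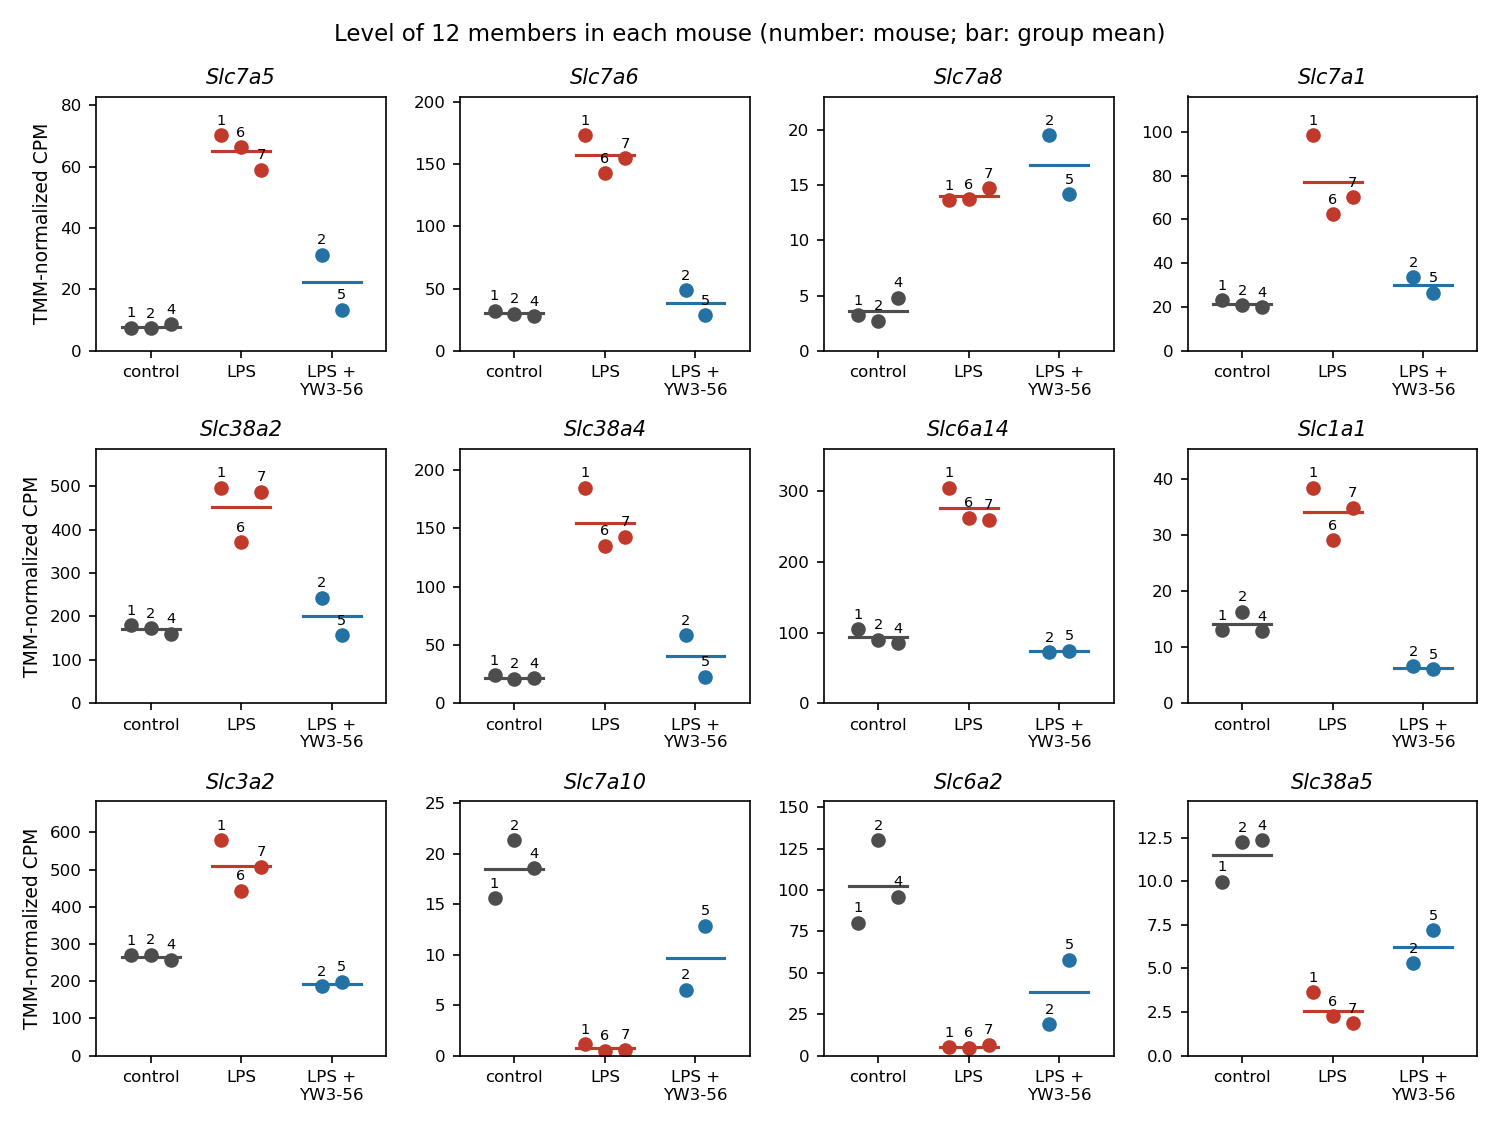
Each panel plots the TMM-normalized CPM of 1 gene (vertical axis from 0) in the control, LPS and dual-treatment mice, with points for mice, numbers for their names and bars for group means. *Slc7a5*, *Slc7a6*, *Slc7a1*, *Slc38a2*, *Slc38a4*, *Slc6a14*, *Slc1a1* and *Slc3a2* had every LPS mouse above all others, *Slc7a8* was high in both treated groups, and *Slc7a10*, *Slc6a2* and *Slc38a5* had every LPS mouse below all others.

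SLC38 carriers take up small neutral amino acids, chiefly glutamine and alanine, with sodium ions. 2 of the 10 tested members rose with LPS and 4 fell, beside 17.9% and 21.3% of all tested genes. *Slc38a2* (SNAT2, the carrier induced by amino acid shortage) was at 179, 172 and 159.9 CPM in control mice 1, 2 and 4, 497, 371 and 488 CPM in LPS mice 1, 6 and 7, and 243 and 157 CPM in dual-treatment mice 2 and 5. All LPS mice were above the rest, and dual-treatment mouse 5 was below the lowest control mouse while mouse 2 was above the highest. *Slc38a2* rose with LPS (log2FC 1.41 ± 0.175, adjusted p = 8.1e-05, edgeR). It was lower with dual treatment than with LPS (log2FC −1.18 ± 0.199, adjusted p = 0.000815, edgeR), which was −0.92 and not called without dual-treatment mouse 5 and −0.84 with library-size scaling.

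*Slc38a4* (ENSMUSG00000022464) encodes SNAT4, a carrier best known from liver and placenta. It was at 23.7, 20.9 and 21.3 CPM in control mice 1, 2 and 4, 185, 135 and 143 CPM in LPS mice 1, 6 and 7, and 58.1 and 22.7 CPM in dual-treatment mice 2 and 5. High values without overlap were found in the LPS mice, dual-treatment mouse 2 was intermediate and mouse 5 was within the control range. *Slc38a4* rose with LPS (log2FC 2.81 ± 0.296, adjusted p = 2.83e-05, edgeR) and was lower with dual treatment (log2FC −1.93 ± 0.330 against LPS, adjusted p = 0.000854, edgeR). Against control the dual-treatment log2FC was 0.88 ± 0.312, and it was 1.37 with a call without mouse 5. *Slc38a1* (SNAT1), *Slc38a2* and *Slc38a4* lie near each other on chromosome 15, at chr15:96469298-96541851, chr15:96585266-96597894 and chr15:96892693-96958593 in GRCm39. *Slc38a1* was at 24.03, 29.1 and 23.5 CPM in control mice 1, 2 and 4, 41.6, 41.8 and 60.8 CPM in LPS mice 1, 6 and 7, and 49.6 and 36.3 CPM in dual-treatment mice 2 and 5. Both treated groups were above control and overlapped with each other. Its log2FC with LPS was 0.91 ± 0.181, under the minimum, and passed it narrowly without control mouse 2, LPS mouse 1 or LPS mouse 6, with 1.01 in each case.

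The SLC38 members that fell were of other subtypes. *Slc38a5* (SNAT5, an exporter and importer of glutamine) was at 9.98, 12.2 and 12.4 CPM in control mice 1, 2 and 4, 3.62, 2.25 and 1.84 CPM in LPS mice 1, 6 and 7, and 5.31 and 7.20 CPM in dual-treatment mice 2 and 5. The groups did not overlap, with LPS lowest and dual treatment between. *Slc38a5* fell with LPS (log2FC −2.17 ± 0.268, adjusted p = 7.81e-05, edgeR) and was higher with dual treatment than with LPS (log2FC 1.28 ± 0.289, adjusted p = 0.0041, edgeR), a call that was lost without LPS mice 6 and 7 (0.78, adjusted p = 0.0593, edgeR). *Slc38a9*, the lysosomal arginine sensor that signals to mTORC1, fell from 21.7, 22.5 and 22.5 CPM in the control mice to 6.35, 9.36 and 13.7 CPM in the LPS mice, and was at 28.5 and 24.1 CPM in the dual-treatment mice. No group overlapped with another, and the dual-treatment mice were the highest. Its log2FC was −1.18 ± 0.231 with LPS, a call lost without LPS mouse 1, and 1.42 ± 0.251 for dual treatment against LPS. *Slc38a7*, a lysosomal glutamine exporter, and *Slc38a6* fell by similar amounts with LPS (log2FC −1.13 and −1.20) and were higher with dual treatment than with LPS (log2FC 1.45 and 1.41). *Slc38a10* was not called (log2FC 0.27 with LPS), and *Slc38a3* and *Slc38a11* were at or below 23 counts in every library.

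SLC1 carriers take up acidic and small neutral amino acids. *Slc1a1* (EAAT3, which imports glutamate, aspartate and cysteine) was at 13.0, 16.3 and 12.9 CPM in control mice 1, 2 and 4, 38.4, 29.0 and 34.9 CPM in LPS mice 1, 6 and 7, and 6.63 and 6.10 CPM in dual-treatment mice 2 and 5. LPS mice were the highest, dual-treatment mice the lowest, and no group overlapped with another. *Slc1a1* was the 1 member called in opposite directions against control, with a log2FC of 1.28 ± 0.148 with LPS (adjusted p = 5.07e-05, edgeR) and of −1.14 ± 0.175 with dual treatment (adjusted p = 0.00271, edgeR). The log2FC between dual treatment and LPS was −2.42 ± 0.182 (adjusted p = 9.68e-06, edgeR). With library-size scaling the rise with LPS was 0.99 and no longer called. *Slc1a2*, the main glutamate carrier of brain, was at 1.10 to 3.96 CPM and lower with dual treatment than with LPS (log2FC −1.48). *Slc1a3*, which imports glutamate and aspartate, and *Slc1a7* were not called, with a log2FC with LPS of −0.61 and −0.68.

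*Slc1a5* (ASCT2, the exchanger that supplies glutamine to growing cells) was at 281, 299 and 268 CPM in control mice 1, 2 and 4, 425, 423 and 406 CPM in LPS mice 1, 6 and 7, and 298 and 256 CPM in dual-treatment mice 2 and 5. All LPS mice were above the rest, and dual-treatment and control mice overlapped. Its log2FC with LPS was 0.56 ± 0.101 (adjusted p = 0.000841, edgeR), a 1.48-fold difference under the minimum. *Slc1a4* (ASCT1), an exchanger of alanine, serine and cysteine, was at 27.0, 27.8 and 50.8 CPM in LPS mice 1, 6 and 7, and from 25.5 to 28.2 CPM in control mice. LPS mouse 7 was the only one above control, and without LPS mice 6 and 7 the log2FC was 0.01 in place of 0.39.

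SLC6 amino acid carriers include broad-range symporters of epithelium. *Slc6a14* (ATB0,+, which imports neutral and cationic amino acids in lung epithelium and colon) was at 105, 89.9 and 85.1 CPM in control mice 1, 2 and 4, 305, 262 and 259.5 CPM in LPS mice 1, 6 and 7, and 72.5 and 74.4 CPM in dual-treatment mice 2 and 5. Every LPS mouse was above every control mouse, and the dual-treatment mice were below the control mice. *Slc6a14* rose with LPS (log2FC 1.56 ± 0.113, adjusted p = 3.35e-06, edgeR) and was lower with dual treatment than with LPS (log2FC −1.91 ± 0.133, adjusted p = 7.62e-06, edgeR). Markers of airway epithelium, led by *Scgb1a1*, summed to 30676, 38999 and 36278 CPM in control mice 1, 2 and 4, 67298, 56957 and 55580.5 CPM in LPS mice 1, 6 and 7, and 23775 and 26369 CPM in dual-treatment mice 2 and 5. None of these 5 markers was called with LPS, 1 was lower with dual treatment than in control (*Scgb3a2*, log2FC −1.35, adjusted p = 0.00701, edgeR), and 3 were lower with dual treatment than with LPS. The part of airway cells in the result on *Slc6a14* was not tested.

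*Slc6a20a* (a carrier of proline and other imino acids) was at 3.33, 3.05 and 2.57 CPM in control mice 1, 2 and 4, 6.41, 9.36 and 6.75 CPM in LPS mice 1, 6 and 7, and 8.67 and 4.92 CPM in dual-treatment mice 2 and 5. Both treated groups were above control and overlapped. It rose with LPS (log2FC 1.33 ± 0.266, adjusted p = 0.00166, edgeR) and with dual treatment (log2FC 1.19 ± 0.289, adjusted p = 0.0228, edgeR). The dual-treatment call was lost without dual-treatment mouse 2 (0.69) and without control mouse 1, 2 or 4 (1.27, 1.20 and 1.06). Its paralog *Slc6a20b*, next to it on chromosome 9, had 1, 1 and 2 counts in the control mice, 12, 13 and 17 in the LPS mice and 0 and 4 in the dual-treatment mice. The call of *Slc6a20b* as lower with dual treatment than with LPS was lost without dual-treatment mouse 2. The ratio of normalized counts of LPS to control was 12.8, with an exact 95% Clopper-Pearson interval of 4.64 to 49.1 that covers counting error only. Reads of these paralogs may be shared, and 21.3% of the exonic bases of *Slc6a20b* overlap *Sacm1l* on the opposite strand, so its value is uncertain. *Slc6a19* (a neutral amino acid carrier of gut and kidney) had 5, 0 and 2 counts in the control and 11, 8 and 22 in the LPS mice, all above the control mice. Its log2FC with LPS was 2.75 ± 0.839 (adjusted p = 0.0156, edgeR), and without LPS mice 6 and 7 it was 2.50 and not called (adjusted p = 0.116, edgeR). The call of *Slc6a19* was also lost without control mouse 4, LPS mouse 1 or LPS mouse 7, and with only the compared groups in the fit. Like *Slc6a20b*, it passed the filter on low counts through the LPS mice only.

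*Slc6a15* (B0AT2, a carrier of branched-chain amino acids and proline) was at 3.08, 3.90 and 3.31 CPM in control mice 1, 2 and 4, 0.475, 0.924 and 1.12 CPM in LPS mice 1, 6 and 7, and 1.63 and 3.20 CPM in dual-treatment mice 2 and 5. Every LPS mouse was below all others, and dual-treatment mouse 5 was within the control range. *Slc6a15* fell with LPS (log2FC −2.02 ± 0.384, adjusted p = 0.00121, edgeR) and was higher with dual treatment than with LPS (log2FC 1.52 ± 0.417, adjusted p = 0.0112, edgeR), which without dual-treatment mouse 5 was 0.93 and not called. *Slc6a9*, the glycine carrier GlyT1, had a log2FC of −0.87 ± 0.118 with LPS (adjusted p = 0.000141, edgeR), under the minimum, and was called without LPS mice 6 and 7 (−1.01). As annotated, 23.5% of the exonic bases of *Slc6a9* are shared with *Ccdc24* and 9.07% with *B4galt2*, both on the opposite strand (log2FC with LPS 0.58 and 0.01). *Slc6a17*, a vesicular carrier of neurons, was not called, with 12, 15 and 11 counts in the control mice and 3, 13 and 25 in the LPS mice.

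Carriers of taurine, betaine and GABA also belong to the SLC6 family. *Slc6a6* (the taurine carrier TauT) was at 233, 202 and 198 CPM in control mice 1, 2 and 4, 211, 218 and 266 CPM in LPS mice 1, 6 and 7, and 318 and 264 CPM in dual-treatment mice 2 and 5. Control and LPS mice overlapped, as did LPS and dual-treatment mice, while dual-treatment mice were above the control mice. The log2FC was 0.14 ± 0.129 with LPS and 0.46 ± 0.143 with dual treatment (adjusted p = 0.0547, edgeR), and no comparison was called. *Slc6a12* (the betaine and GABA carrier BGT1) had 5, 8 and 1 counts in control mice, 8, 9 and 6 in LPS mice and 89 and 21 in dual-treatment mice. Dual-treatment mouse 2 was far above the rest, and mouse 5 was above the control and LPS mice as well. *Slc6a12* passed the filter on low counts through the dual-treatment mice only. The log2FC was 3.45 ± 0.754 against control (adjusted p = 0.0145, edgeR) and 2.47 ± 0.716 against LPS (adjusted p = 0.0146, edgeR), and the call against LPS was lost without LPS mice 6 and 7 (2.36, adjusted p = 0.127, edgeR). Without dual-treatment mouse 2 both calls were lost, and without control mouse 1 the call against control was lost. *Slc6a13* (GAT2), which lies next to *Slc6a12* on chromosome 6, had 31 and 17 counts in the dual-treatment mice and 5, 7 and 9 in the control mice, with a log2FC of 1.69 ± 0.611 that was not called (adjusted p = 0.0921, edgeR).

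*Slc6a2* (ENSMUSG00000055368, chr8:93686707-93728295 in GRCm39) encodes the noradrenaline carrier NET. It was at 80.1, 130.3 and 96.1 CPM in control mice 1, 2 and 4, 4.92, 4.79 and 6.53 CPM in LPS mice 1, 6 and 7, and 18.8 and 57.9 CPM in dual-treatment mice 2 and 5. All LPS mice were more than 10 times below the lowest control mouse, and the dual-treatment mice were between, with mouse 2 lower than mouse 5. *Slc6a2* fell with LPS (log2FC −4.23 ± 0.405, adjusted p = 1.57e-05, edgeR) and was higher with dual treatment than with LPS (log2FC 2.82 ± 0.414, adjusted p = 0.000351, edgeR). Against control the dual-treatment value was lower (log2FC −1.41 ± 0.397, adjusted p = 0.0402, edgeR), a call lost without control mouse 1, 2 or 4 (−1.56, −1.20 and −1.48) and without dual-treatment mouse 2 (−0.85). It was also lost without LPS mouse 6, with only the compared groups in the fit (−1.40, adjusted p = 0.0565, edgeR) and without LPS mice 6 and 7 (−1.41, adjusted p = 0.0588, edgeR). *Slc6a4* (the serotonin carrier SERT) was at 6.12, 6.34 and 8.87 CPM in control mice 1, 2 and 4, 4.21, 1.56 and 1.84 CPM in LPS mice 1, 6 and 7, and 3.09 and 4.35 CPM in dual-treatment mice 2 and 5. All treated mice were below the control mice, and LPS and dual-treatment mice overlapped, with LPS mouse 1 above LPS mice 6 and 7. *Slc6a4* fell with LPS (log2FC −1.49 ± 0.370, adjusted p = 0.00571, edgeR), but without LPS mice 6 and 7 the value was −0.75 and not called (adjusted p = 0.0982, edgeR). Against LPS its dual-treatment log2FC was 0.55, and it was 1.12 with a call without LPS mouse 1. *Slc6a8*, the creatine carrier, had a log2FC of −0.30 with LPS.

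Of 8 endothelial markers, 6 were lower with LPS (median log2FC −2.22) and the same number were higher with dual treatment than with LPS, while none was called against control with dual treatment. They summed to 4601, 4995 and 5100.4 CPM in control mice 1, 2 and 4, 2284, 1881 and 1892 CPM in LPS mice 1, 6 and 7, and 4000.2 and 4488 CPM in dual-treatment mice 2 and 5. *Egfl7*, the marker with the highest mean in the control mice, was at 944, 817 and 943 CPM in the control mice, 163, 119 and 146 CPM in the LPS mice and 656 and 672 CPM in the dual-treatment mice. *Cdh5* was not called with LPS (log2FC 0.17), nor was *Cldn5* (log2FC −0.02), and no endothelial marker was at 0 in any mouse. In whole lung, fewer cells of a type and less RNA per cell cannot be told apart. The part of endothelial cells in the results on *Slc6a2* and *Slc6a4* was not tested.

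The proton-coupled SLC36 carriers export small amino acids from lysosomes or take them up at the cell surface. *Slc36a2* fell with LPS (log2FC −1.11 ± 0.193, adjusted p = 0.000706, edgeR), from 22.7, 33.9 and 31.2 CPM in the control mice to 12.1, 11.4 and 17.2 CPM in the LPS mice, without overlap, but the call was lost without control mouse 2 or LPS mouse 6. *Slc36a1* and *Slc36a4* were not called in any comparison. Among the SLC43 carriers, *Slc43a2* (LAT4, a uniporter of branched-chain amino acids and phenylalanine) was at 169, 161 and 172 CPM in control mice 1, 2 and 4, 131, 118 and 117 CPM in LPS mice 1, 6 and 7, and 147 and 153 CPM in dual-treatment mice 2 and 5. The LPS mice were the lowest, and the difference was small (log2FC −0.46 ± 0.0886, adjusted p = 0.00136, edgeR). The antisense noncoding gene *Gm45606*, at 0.289 to 3.29 CPM, overlaps 17.8% of the exonic bases of *Slc43a2*. *Slc43a1* (LAT3) was lower with dual treatment than with LPS (log2FC −1.07), a call lost with library-size scaling. *Slc43a3*, a carrier of purine bases, had a log2FC of 0.56 with LPS and was not called.

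The other 16 members had too few counts to be tested. *Slc6a5*, *Slc6a11*, *Slc6a18*, *Slc7a12* and *Slc7a13* were at 0 counts in all 8 libraries. The others, among them *Slc1a6*, *Slc36a3*, *Slc38a8*, *Slc6a3*, *Slc6a7*, *Slc6a16*, *Slc6a21*, *Slc7a9*, *Slc7a14* and *Slc7a15*, had at most 11 counts in any library. Most of these are carriers of neurons, kidney or gut, among them the dopamine carrier *Slc6a3* and the glycine carrier *Slc6a5*. Differences in these genes were not detectable at this depth.

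Other genes of amino acid metabolism were counted by list, without a test of any list. Of all tested genes, 17.9% were higher and 21.3% lower with LPS than in control, 5.25% and 1.90% with dual treatment than in control, and 19.8% and 14.0% with dual treatment than with LPS. Of 20 genes of the amino acid response, 6 were higher and 3 lower with LPS (median log2FC 0.53). *Atf4*, the transcription factor of that response, was at 256, 238 and 241 CPM in the control mice, 838, 660.1 and 633 CPM in the LPS mice and 303 and 220.0 CPM in the dual-treatment mice. It rose with LPS (log2FC 1.54 ± 0.154, adjusted p = 2.06e-05, edgeR) and was lower with dual treatment than with LPS (log2FC −1.44 ± 0.177, adjusted p = 0.000122, edgeR). *Ddit4*, *Sesn2*, *Phgdh*, *Psat1* and *Mthfd2* also rose with LPS, whereas *Asns* (log2FC 0.86) and *Trib3* (log2FC 0.68) stayed under the minimum and *Ddit3*, *Vldlr* and *Cth* fell. With dual treatment against control 3 were higher and 2 lower, and against LPS 1 was higher and 3 were lower.

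Of 20 cytosolic aminoacyl-tRNA synthetases, which load amino acids onto tRNA, 4 were higher and 0 lower with LPS, beside 17.9% and 21.3% of all tested genes (median log2FC 0.51), namely *Wars1*, *Vars1*, *Gars1* and *Kars1*. *Wars1*, the tryptophan enzyme induced by interferon, was at 169, 153 and 177 CPM in the control mice, 1445, 1028 and 1061 CPM in the LPS mice and 159 and 175 CPM in the dual-treatment mice. It alone was lower with dual treatment than with LPS (log2FC −2.82 ± 0.184, adjusted p = 5.94e-06, edgeR), *Lars1* alone was higher, and none was called against control with dual treatment (*Wars1* log2FC 0.01).

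Of 23 tested enzymes of amino acid use, 8 were higher and 4 lower with LPS, beside 17.9% and 21.3% of all tested genes. Among those that share substrates with the cationic carriers, *Nos2* (log2FC 3.04) and *Odc1* (log2FC 3.31) rose with LPS, and both were lower with dual treatment than with LPS. *Glul*, glutamine synthetase, rose with LPS (log2FC 2.19), as did *Ido1* (log2FC 5.83), which degrades tryptophan. With dual treatment 3 of these enzymes were higher and 1 lower than in control, and 4 were higher and 7 lower than with LPS.

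Of 22 genes of amino acid sensing at the lysosome, 1 was higher and 6 were lower with LPS, beside 17.9% and 21.3% of all tested genes (median log2FC −0.30). *Sesn1* was the 1 that rose (log2FC 2.71), and *Castor1*, *Castor2*, *Nprl2*, *Flcn*, *Mlst8* and *Rragb* were those that fell. None was called with dual treatment against control, and 7 were higher and 2 lower with dual treatment than with LPS. Of 15 tested amino acid carriers of other families, a list that includes *Slc7a11*, 4 were higher and 1 was lower with LPS, beside the same shares of all tested genes. *Slc7a11* (xCT), the cystine carrier that pairs with *Slc3a2*, had 22, 19 and 8 counts in the control mice, 957, 852 and 1159 in the LPS mice and 375 and 111 in the dual-treatment mice. The 1 that fell was *Slc16a10* (log2FC −1.99), a carrier of aromatic amino acids. In this list 2 were higher and 0 lower with dual treatment than in control, and 1 was higher and 5 lower than with LPS.

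Markers of infiltrating cells also differed between the groups. Of 8 neutrophil markers, 7 were higher with LPS and 6 with dual treatment than in control. They summed to 215, 119 and 125 CPM in control mice 1, 2 and 4, 2136, 2956 and 1849 CPM in LPS mice 1, 6 and 7, and 1716 and 2387 CPM in dual-treatment mice 2 and 5, led by *S100a9*. Of 8 macrophage markers, 0 were higher and 2 lower with LPS, and 6 were higher with dual treatment than in control. They summed to 329, 248 and 322 CPM in control mice 1, 2 and 4, 297, 296 and 214 CPM in LPS mice 1, 6 and 7, and 829 and 900.3 CPM in dual-treatment mice 2 and 5, and *Csf1r* had the highest mean in the control mice. No marker of these lists was at 0 counts in any mouse. Against LPS, 7 macrophage markers were higher with dual treatment, and 4 neutrophil markers were higher and 2 lower. The sum of the macrophage markers was highest in the dual-treatment mice, as were *Slc7a7* and *Slc38a9* among other members. The sum of the neutrophil markers was above control in both treated groups, as were *Slc7a8* and *Slc38a1* among other members. The part of these cells in those results was not tested.

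The other marker lists were called as follows, first with LPS against control. Of 7 alveolar type 2 markers 2 were lower, of 6 alveolar type 1 markers 3 were lower, of 6 fibroblast markers 1 was lower, and of 6 smooth muscle and pericyte markers 1 was lower. Of 7 T and B cell markers 3 were lower, and of 7 platelet and erythroid markers 1 was higher. All 6 tested skeletal muscle markers and 6 of 7 squamous markers were higher, which the values of LPS mice 6 and 7 carried. Of the platelet and erythroid markers, 1 was higher and 3 were lower with dual treatment than in control, and 5 were lower than with LPS. They summed to 1589, 3401 and 2544 CPM in control mice 1, 2 and 4, 2947, 1811 and 1374 CPM in LPS mice 1, 6 and 7, and 446 and 473 CPM in dual-treatment mice 2 and 5. *Hbb-bs*, the most abundant, was at 856, 2024 and 1454 CPM in the control mice, 1571, 829 and 698 CPM in the LPS mice and 206 and 184 CPM in the dual-treatment mice (log2FC −2.89 for dual treatment against control, adjusted p = 0.00254, edgeR), so blood cell mRNA also differed in the comparisons with dual treatment. With dual treatment against control, 1 marker was lower in each of the lists of alveolar type 1, fibroblast, and smooth muscle and pericyte cells, and none was called among alveolar type 2, T and B cell, skeletal muscle and squamous markers. Against LPS, dual treatment had 1 alveolar type 2 marker higher, 3 alveolar type 1 markers higher and 1 lower, 2 fibroblast markers higher, 1 smooth muscle and pericyte marker higher and 2 lower, and 2 T and B cell markers higher and 1 lower. In that comparison 6 skeletal muscle and 5 squamous markers were lower.

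Promoter sequences were read to see whether members that moved in the same direction shared short motifs. RefSeq windows of 300 bases (250 before and 50 after the transcription start, build GRCm38.p6) matched 45 of the 63 members by symbol, with 66 windows in all. Members without a matched window included *Slc1a5*, *Slc36a2*, *Slc38a1*, *Slc38a3*, *Slc43a3*, *Slc6a2*, *Slc6a6*, *Slc6a7*, *Slc6a8*, *Slc6a15*, *Slc6a18*, *Slc7a2*, *Slc7a3*, *Slc7a4*, *Slc7a5*, *Slc7a12* and *Slc7a13*. The motif TGATGCAA, the C/EBP-ATF element of amino acid response genes, was in 3 of the 66 windows (4.55%) and in 0.895% of all 32851 windows, on either strand. These were windows of *Slc1a4* and *Slc7a7*, neither of which was called with LPS against control. Between dual treatment and LPS, *Slc7a7* was called higher, and *Slc1a4* was called lower with DESeq2 and with RLE scaling. The AP-1 motif TGANTCA was in 9 member windows (13.6%, against 7.81% of all) and the E-box CACGTG in 9 (13.6%, against 7.15% of all). Windows of 1 gene can overlap, so they are not independent, and a match only describes these letters.

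The windows of members called with LPS that held a motif are shown, in the direction of the gene with the motif in capitals, to let risen and fallen members be compared. Those of *Slc6a14* (chrX:21714650-21714949, plus strand) and *Slc7a1* (chr5:148399855-148400154, minus strand), which rose, held an AP-1 motif. That of *Slc38a5* (chrX:8271131-8271430, plus strand), which fell, held an E-box, and that of *Slc38a7* (chr8:95853442-95853741, minus strand), which also fell, held an AP-1 motif and then an E-box.
Slc6a14: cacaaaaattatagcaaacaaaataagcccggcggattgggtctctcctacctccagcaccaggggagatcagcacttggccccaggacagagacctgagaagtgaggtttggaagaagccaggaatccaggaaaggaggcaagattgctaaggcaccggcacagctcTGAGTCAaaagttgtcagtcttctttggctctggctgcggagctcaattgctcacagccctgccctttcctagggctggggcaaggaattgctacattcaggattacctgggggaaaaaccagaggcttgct
Slc7a1: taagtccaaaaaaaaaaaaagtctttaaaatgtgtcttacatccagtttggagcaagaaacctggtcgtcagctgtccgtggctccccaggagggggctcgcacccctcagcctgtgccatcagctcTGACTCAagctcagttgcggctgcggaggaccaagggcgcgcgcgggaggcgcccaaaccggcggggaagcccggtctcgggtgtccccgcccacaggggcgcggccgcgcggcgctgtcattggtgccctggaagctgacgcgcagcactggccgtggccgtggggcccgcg
Slc38a5: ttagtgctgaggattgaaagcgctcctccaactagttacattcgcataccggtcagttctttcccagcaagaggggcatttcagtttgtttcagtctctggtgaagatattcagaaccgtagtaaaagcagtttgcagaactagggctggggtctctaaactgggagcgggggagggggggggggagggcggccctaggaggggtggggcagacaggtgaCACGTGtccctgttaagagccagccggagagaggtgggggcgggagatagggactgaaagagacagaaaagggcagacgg
Slc38a7: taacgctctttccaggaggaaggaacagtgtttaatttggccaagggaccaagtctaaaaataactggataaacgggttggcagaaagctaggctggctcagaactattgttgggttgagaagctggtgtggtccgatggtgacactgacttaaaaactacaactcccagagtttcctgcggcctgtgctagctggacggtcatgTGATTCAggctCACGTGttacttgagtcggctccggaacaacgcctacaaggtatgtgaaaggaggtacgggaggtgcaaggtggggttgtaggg
The AP-1 motif was thus found in members that rose and in a member that fell, and none of these windows held the C/EBP-ATF element.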

How the data were processed

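RNA-seq of lung from 8 mice was used. The authors filtered the reads with FastQC 0.11.9 and Trim Galore, aligned them to GRCm39 with HISAT2 2.2.1, counted them per gene with featureCounts 2.0.1 and deposited the raw counts. The annotation release, strand setting and handling of multiply mapped reads are not given in the sources used here. Of 55416 identifiers, 54749 matched GENCODE M39, and the other 667 held 0.0533% of counts. Exons of 29 of the 63 members share bases with another gene, in each case on the opposite strand.

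The analysis used edgeR 4.0.16 under R 4.3.3. Low counts were filtered by filterByExpr, libraries were scaled by TMM, and a quasi-likelihood model with a term for group was fitted to the 8 libraries at once, leaving 5 residual degrees of freedom. DESeq2 1.42.0, the tool of the authors, was an alternative, as were other scalings, filters, call rules, member sets and sets of mice. The code was tested on simulated data. Symbols came from GENCODE and lengths from the union of exons.

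By rule, values in every mouse are given for 22 members: the 10 with the largest log2FC among those called with LPS at a mean of at least 1 CPM, those called with dual treatment against control at that mean, and 15 listed by name. *Slc1a4*, *Slc6a12*, *Slc6a13*, *Slc6a17*, *Slc6a19*, *Slc6a20b*, *Slc7a6os*, *Slc36a2* and *Slc38a9* were given for some or all mice outside this rule after their values were seen. The members and lists were chosen with earlier results of these data known.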

Additional observations from a re-analysis of the deposited data

How the results depend on the processing

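Of 33 calls on the 22 members given in every mouse by rule, 24 held under every alternative in which the gene was tested. With LPS against control 12 of 14 held, the exceptions being *Slc1a1* and *Slc6a4*, but *Slc7a10* and *Slc6a15* had no result with at least 10 counts in every library. With dual treatment against control 2 of 5 held (*Slc1a1* and *Slc7a8*), and with dual treatment against LPS 10 of 14. DESeq2 and RLE scaling called every member that edgeR called, and added *Slc1a4* to those lower with dual treatment than with LPS. Requiring 10 counts in every library left 36 members, and among the called ones it removed *Slc6a19*, *Slc6a20b*, *Slc6a15*, *Slc7a10* and *Slc6a12*. With no filter on low counts the same members were called.

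Apart from fits that leave 1 mouse in a group, counts of members moved by more than 1.5 times as follows. Without a fold minimum, 20 members were higher and 16 lower with LPS than in control, and 5 were lower with dual treatment, beside 32.6%, 33.9% and 7.02% of all tested genes. The count lower with dual treatment than in control was 1 with only the compared groups in the fit, beside 2.27% of all genes tested there. It was also 1 without the members whose substrates are no amino acids, since *Slc6a2* is among these, beside 1.90% of all tested genes. When each mouse was left out in turn, the members higher with dual treatment than in control ran from 1 to 5 and those lower from 1 to 3. Leaving out *Slc7a6os*, an alternative chosen after seeing the data, changed no count.

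Among the 22 members given in every mouse by rule, directions changed only for differences that were not called. With library size scaling the log2FC was −0.14 for *Slc6a6* with LPS against control, 0.0104 for *Slc1a5* with dual treatment against control, and 0.15 for *Slc38a1* and 0.18 for *Slc6a20a* with dual treatment against LPS. Without LPS mice 6 and 7 the log2FC of dual treatment against LPS was 0.0373 for *Slc38a1*, 0.0762 for *Slc6a20a* and −0.19 for *Slc6a4*. Leaving out each mouse in turn gave −0.37 to 0.27 for *Slc3a1* with LPS against control. With dual treatment against control it gave −0.17 to 0.0448 for *Slc1a5*, −0.15 to 0.48 for *Slc38a2* and −0.0908 to 0.66 for *Slc7a6*. With dual treatment against LPS it gave −0.64 to 0.18 for *Slc6a20a*, −0.43 to 0.0326 for *Slc38a1* and −0.0119 to 0.45 for *Slc7a8*. The cause was not tested.

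No paired analysis was possible because the groups share at most 1 replicate number. The dual-treatment group has 2 mice, which differed in *Slc7a5*, *Slc38a4*, *Slc6a2* and *Slc6a12*, so differences of this group are the least certain. The p-values set a group difference against the spread of mice within groups, estimated over all 8 libraries and in part shared between genes. For the dual-treatment group that spread therefore rests in part on the mice of the other groups. Members with few counts, such as *Slc3a1* and *Slc6a19*, would be called only for large differences.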
